A study of Mus musculus with 4 samples.

Results

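The genes described here encode the machinery that copies chromosomal DNA and the enzymes that supply it with deoxynucleotides. They were listed by function, as 43 genes in 11 groups that run from origin recognition to nucleotide synthesis, and each was read from the probe set that names it alone, taking the one with the highest mean where there were several. In all, 40 of the 43 had such a probe set, among 18782 genes tested. Gins2, Rfc4 and Tyms lay on probe sets that name a second gene as well and are not part of the comparison.

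Alveolar macrophages live on the air side of the lung, where they clear surfactant and debris. Those studied here came from the lungs of adult C57BL/6 mice and were isolated by cell sorting, then profiled on Affymetrix arrays. The KO mice were CD11c-cre/PPARgfl/fl: both alleles of Pparg were floxed, and Cre was expressed from the promoter of CD11c. Their cells carry the label of immature cells that stopped before the mature stage. The WT mice were PPARgfl/fl without Cre, so the floxed alleles were shared by both genotypes, and their cells carry the label mature. There were 2 KO and 2 WT arrays, each of cells pooled from 2 mice. CD11c is also made by dendritic cells and other macrophages, so this Cre is not limited to the cells sorted. Both groups were gated on CD45, high CD11c, high autofluorescence and Siglec-F. The sort notes name a CD11b high gate and a CD11b low gate, but pair gates, ages and genotypes in 1 sentence that can be read in more than 1 way. If the high gate was used for KO and the low gate for WT, the sort itself differed between the genotypes. The notes do not settle this, and the RNA of CD11b is given below. All 4 samples are titled adult, although that sentence also names a younger age.

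Values are log2 expression after RMA, and a negative difference means less signal in KO. The arrays share 1 distribution, with a median of 3.14, so a change common to most transcripts would not be seen. KO was compared with WT by limma over all 18782 genes, with p-values adjusted by the Benjamini-Hochberg method and a threshold of 0.05, and errors of a difference are standard errors of that fit. Pparg itself read 9.59 and 9.73 in KO and 9.69 and 9.75 in WT (adjusted p = 0.79). Where its probes lie with respect to the floxed exons was not available from the annotation used, so Pparg checks neither label. Itgam, the gene of the gated protein CD11b, read 8.87 and 8.61 in KO and 3.10 and 2.87 in WT, a difference of 5.76 ± 0.14. The KO cells were thus high in CD11b RNA, while both WT values lay below the array median. Gate and genotype cannot be told apart as the source of this difference. Among 12 alveolar macrophage markers, 0 were higher and 3 lower (Fabp1, Mertk and the gated gene Siglecf). Over all genes tested, 7.41% were higher and 6.86% lower. Car4 (-0.315), Plet1 (-0.045), Chil3 (0.040), Lyz2 (0.065), Adgre1 (0.073), Cd68 (0.14) and Itgax (0.24) did not pass the test. Their group means ran from 9.51 to 11.53. Log2 values of the 12 summed to 100.69 and 101.91 on the KO arrays and 112.66 and 118.35 on the WT arrays. The largest of the 12 differences were those of Fabp1 (-5.96), Siglecf (-3.27), Marco (-2.62) and Fabp4 (-2.07). Marco read 3.04 and 3.37 in KO and 7.22 and 4.43 in WT. Fabp4 read 4.19 and 4.45 in KO and 7.57 and 5.21 in WT. Neither passed the test, and their WT arrays were 2.79 and 2.36 apart. A further 32 measured markers covered T cells, B cells, alveolar epithelium, eosinophils, neutrophils, endothelium and fibroblasts. Of these, Cd4 (0.42 ± 0.10) and Vwf (1.16 ± 0.10) were higher and Ager (-1.32 ± 0.12) was lower in KO. Vwf read 7.17 and 7.30 in KO and 6.09 and 6.04 in WT, above the array median. Ager, also above it, read 3.87 and 3.64 in KO and 5.13 and 5.02 in WT. The epithelial gene Cdh1 read 6.97 and 7.07 in KO and 6.88 and 6.83 in WT, not past the test. Cd4 read 3.08 and 3.18 in KO and 2.73 and 2.69 in WT, around or below the array median. The sums were 12.22 and 13.18 in KO and 11.42 and 12.09 in WT for T cells, 15.95 and 16.02 in KO and 14.40 and 16.05 in WT for endothelium, and 12.73 and 13.04 in KO and 10.93 and 11.51 in WT for neutrophils. The epithelial markers summed to 24.47 and 25.21 in KO and 25.78 and 27.36 in WT. Cd3d, Cd3g, Cd8a, Ms4a1, Pax5, Kdr, Sftpd and Nkx2-1 lay below the array median on every array. So did Mpo, Elane, Retnlg, Col1a2, Pdgfra, Dcn and all 4 eosinophil markers. Of the measured neutrophil markers only Cxcr2 lay above it, with 5.12 and 5.47 in KO and 4.77 and 3.92 in WT, not past the test. Whether these other cells have a part in the differences below was not tested.

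Replication is prepared when the origin recognition complex, with Cdc6 and Cdt1, loads rings of the Mcm2 to Mcm7 helicase onto DNA. In S phase the kinase of Cdc7 and Dbf4, with Mcm10, Cdc45 and the GINS complex, turns these rings into active helicases, and polymerases, the sliding clamp and ligase then copy the strands. Alveolar macrophages keep their numbers largely by dividing in place, and many of these genes are transcribed under E2F factors as a cell enters S phase, so that their RNA is commonly read as a sign of cycling cells.

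KO macrophages held less RNA of most of the replication machinery. Of the 40 measured genes, 23 were lower in KO, 0 were higher and 17 did not pass the test, with a median difference of -0.65. Over all genes tested, 6.86% were lower and 7.41% higher, with a median of -0.015. The differences ran from -1.88 for Pole to 0.14 for Rfc2, and 37 of the 40 were below 0. Both KO arrays lay below both WT arrays for 34 members, against 30.0% of all genes, and above them for 2 members, against 25.3% of all genes. When the test asked for a difference beyond 0.5 in either direction, 10 members were lower, against 1.79% of all genes. Fewer cells in S phase and less of each transcript per cell cannot be told apart in RNA of pooled cells. With 1 array left out at a time, between 16 and 23 members were lower. The 16 were found without KO replicate 2, and 15 members were lower with all arrays and in each of these 4 fits.

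**Figure D1:**
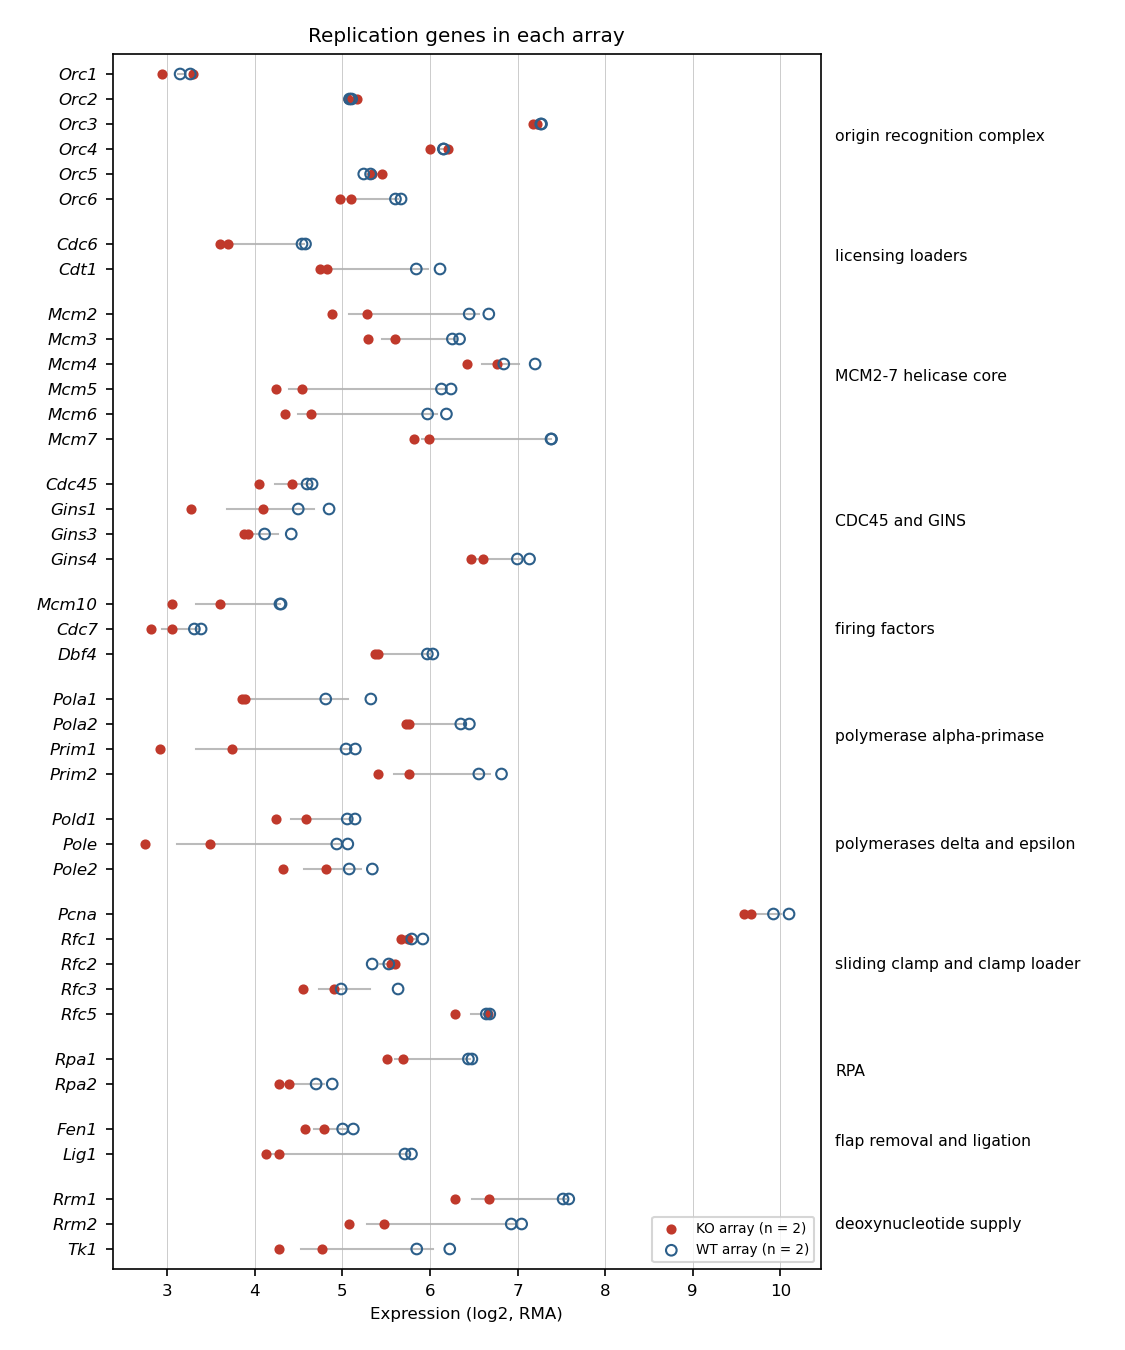
Expression of the 40 measured genes in each array, on the horizontal axis in log2 RMA units, grouped by complex down the page. Filled red points are the 2 KO arrays, open blue points the 2 WT arrays, and grey lines join the group means. In 34 rows both KO points lie left of both WT points.

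Of the origin recognition complex, the ATP-driven ring that marks origins, 1 of 6 genes was lower and 5 did not pass the test. Orc6, the subunit least tightly held to the others, read 5.10 and 4.98 in KO against 5.67 and 5.61 in WT, so the groups did not overlap. Its difference of -0.60 ± 0.10 (adjusted p = 0.0122) was the 1 call of the complex, and it was lost without KO replicate 2 (adjusted p = 0.078) and without WT replicate 1 (adjusted p = 0.0571). Orc2 read 5.16 and 5.06 in KO against 5.11 and 5.08 in WT, with a difference of 0.018 and a 95% interval of -0.22 to 0.26. Orc3 (-0.075, interval -0.30 to 0.15), Orc4 (-0.055, -0.32 to 0.21) and Orc5 (0.11, -0.14 to 0.36) had intervals of similar width that also held 0. Orc1, the largest subunit and an ATPase, read 3.30 and 2.94 in KO against 3.15 and 3.26 in WT. These values lie at the array median, where signal is compressed, and the interval of its difference ran from -0.43 to 0.26.

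The proteins that load the helicase were both lower. Cdc6, the ATPase that joins the origin recognition complex, read 3.60 and 3.70 in KO against 4.54 and 4.58 in WT, a difference of -0.91 ± 0.10 (adjusted p = 0.00214). Cdt1, which delivers the helicase and is held in check by geminin, read 4.75 and 4.82 in KO against 6.12 and 5.84 in WT (-1.19 ± 0.12, adjusted p = 0.00179). For both genes the KO arrays differed from each other by less than 0.1, and lay far from the WT arrays.

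The Mcm2 to Mcm7 proteins form the hexameric ring that unwinds DNA, and 5 of the 6 genes were lower. Mcm5 read 4.54 and 4.24 in KO against 6.24 and 6.13 in WT, a difference of -1.79 ± 0.13 (adjusted p = 0.000559) that left 0.288 of the WT signal. Mcm6 read 4.65 and 4.34 in KO against 6.19 and 5.97 in WT (-1.59 ± 0.14). Mcm7 read 5.99 and 5.82 in KO against 7.38 and 7.39 in WT (-1.48 ± 0.11). Mcm2, whose amino end also binds histones, read 5.28 and 4.88 in KO against 6.67 and 6.45 in WT (-1.48 ± 0.16). Mcm3 differed less, with 5.60 and 5.30 in KO against 6.34 and 6.26 in WT (-0.85 ± 0.13, adjusted p = 0.0084). Mcm4, the remaining subunit of the ring, read 6.77 and 6.42 in KO against 7.20 and 6.84 in WT. The arrays of each genotype were 0.35 and 0.36 apart for Mcm4, nearly as far as the group means, and its difference of -0.43 ± 0.17 did not pass the test (adjusted p = 0.172). The 5 calls stood whichever array was left out. A difference in size between subunits of the ring was not tested.

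With 5 of the 6 genes of the ring lower, the promoters were read for the letters of E2F sites. The stretches below are RefSeq promoter sequence of GRCm38.p6, written 5′ to 3′ on the strand of the gene, with the letters TTTNNCGC, where each N is C or G, in capitals on either strand. The Mcm5 stretch lies at chr8:75109336-75109387 on the plus strand, from 173 to 122 bases before the annotated start. The Mcm6 stretch lies at chr1:128359725-128359835 on the minus strand, from 130 to 20 bases before it. Both are shown because they hold an identical run, read on opposite strands.
Mcm5: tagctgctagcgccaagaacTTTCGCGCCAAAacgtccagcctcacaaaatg
Mcm6: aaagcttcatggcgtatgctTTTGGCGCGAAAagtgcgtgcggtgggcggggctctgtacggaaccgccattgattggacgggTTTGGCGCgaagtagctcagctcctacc

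The first run of capitals in each stretch is made of 2 overlapping matches, and TTTCGCGCCAAA in Mcm5 is the reverse complement of TTTGGCGCGAAA in Mcm6. Of 27025 genes in the promoter table, 4 held this run of 12 bases on either strand, and the other 2 were Msh3 and Mycn, named here after the search. Mcm6 held 1 further match 47 bases before its start. For all members, TTTNNCGC with C or G at each N was searched on both strands from 250 bases before to 50 after each annotated start, and 36 members had an entry. At least 1 match was found for 14 of the 36, or 38.9%, against 2.60% of all genes in the table and 3.56% of those tested on the arrays. Base composition differed too, with a median of 60.1% G and C in the members' windows and 52.8% over all genes. Of the members with an entry, 9 of 20 that were lower and 5 of 14 that did not pass the test held a match. Orc1, Orc3, Gins3, Pole2 and Rfc3 held a match without passing the test. Stretches of Gins3, at chr8:95633498-95633545 on the plus strand, and of Rfc3, at chr5:151651209-151651238 on the minus strand, are given to set beside those of the ring, with the matches again in capitals.
Gins3: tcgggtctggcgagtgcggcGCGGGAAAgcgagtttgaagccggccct
Rfc3: ccggaagtgacgtcgcacgcTTTCGCGCtc

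In Gins3 the match is read on the strand opposite to the gene and starts 41 bases before the annotated start, and in Rfc3 it starts 10 bases before it, with 1 more match at the start itself. Within the ring, Mcm3, Mcm5, Mcm6 and Mcm7 held matches and Mcm2 held none in this window, while Mcm4 has no entry.

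The letters CCAAT, the core of the site of the factor NF-Y, were found for 21 of 36 members, or 58.3%, against 41.1% of all genes. TTTGAA, the letters of the cell cycle homology region that is best known from mitotic genes, was found for 6 of 36, or 16.7%, against 20.2% of all genes. These matches describe letters only, and no binding was measured here.

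**Figure D2:**
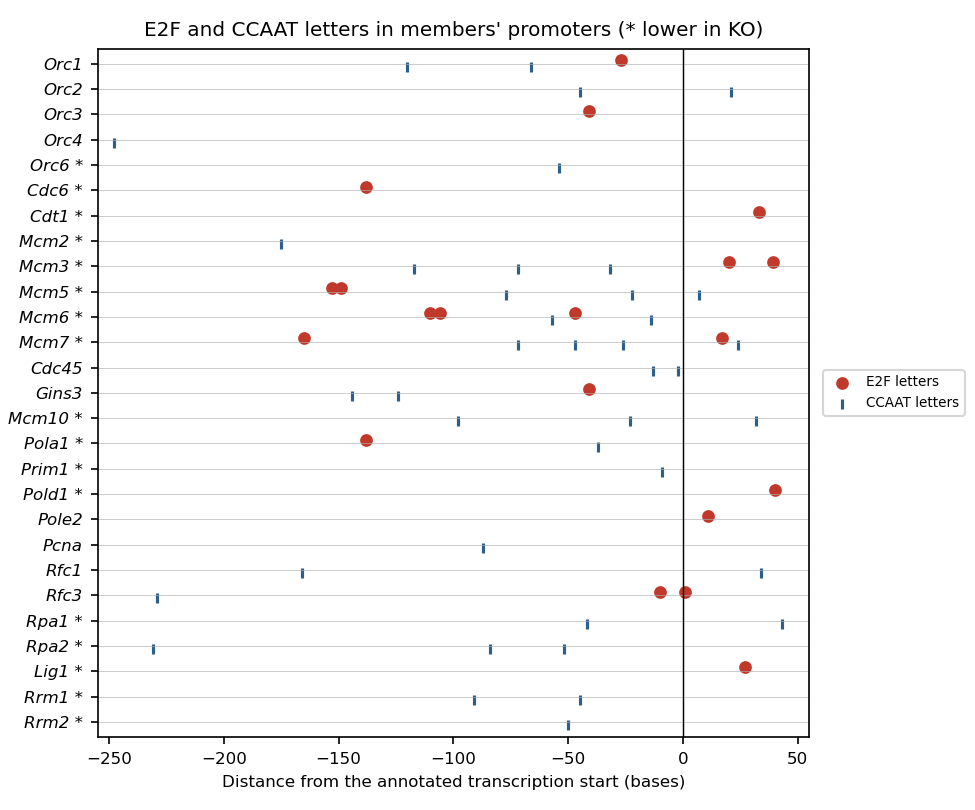
Positions of E2F letters (red points) and CCAAT letters (blue ticks) on either strand, by distance in bases from the annotated transcription start at 0, for measured members with a match to either. Asterisks mark genes lower in KO. E2F letters stand both in rows with an asterisk, such as Mcm5, Mcm6 and Mcm7, and in rows without, such as Orc1 and Orc3.

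Cdc45 and the GINS proteins join the ring to make it an active helicase, and 1 of the 4 measured genes was lower. Gins4 read 6.60 and 6.47 in KO against 7.14 and 6.998 in WT (-0.53 ± 0.11, adjusted p = 0.0236). Its call was lost without KO replicate 1 (adjusted p = 0.0747), KO replicate 2 (0.129) or WT replicate 1 (0.106). Gins1 had the larger difference, -0.99 ± 0.27, with 4.09 and 3.27 in KO against 4.85 and 4.50 in WT. The KO arrays were 0.82 apart, the widest gap of any member, and the test was not passed (adjusted p = 0.0635) except without KO replicate 1 among the fits that left out 1 array, where the difference was -1.40 (adjusted p = 0.0192). Cdc45 differed by -0.39 ± 0.14 and Gins3 by -0.37 ± 0.13. In all 4 genes both KO arrays lay below both WT arrays, as they did for 30.0% of all genes tested.

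Mcm10 and the Dbf4-dependent kinase act when origins fire. Mcm10 read 3.60 and 3.05 in KO against 4.29 and 4.30 in WT (-0.97 ± 0.18, adjusted p = 0.0182), a call that was lost without WT replicate 1 (adjusted p = 0.0575). Dbf4, the regulatory partner of the kinase, read 5.41 and 5.38 in KO against 5.97 and 6.03 in WT (-0.61 ± 0.10, adjusted p = 0.00917). The Dbf4 difference was near the same without KO replicate 1 (-0.63, adjusted p = 0.0557) and without KO replicate 2 (-0.59, adjusted p = 0.0622), where the test was not passed. Cdc7, the catalytic subunit, read 3.06 and 2.82 in KO against 3.31 and 3.39 in WT, around the array median (-0.41 ± 0.12, adjusted p = 0.0718).

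All 4 genes of DNA polymerase alpha and its primase, which lay down the RNA and DNA primers of each strand, were lower. Prim1, the catalytic primase subunit, read 3.74 and 2.92 in KO against 5.15 and 5.04 in WT, a difference of -1.77 ± 0.25 (adjusted p = 0.00646). Prim2, its partner, read 5.76 and 5.41 in KO against 6.82 and 6.56 in WT (-1.10 ± 0.16, adjusted p = 0.00625). Both primase genes were lower in each fit that left out 1 array. Pola1, the catalytic polymerase subunit, read 3.88 and 3.86 in KO against 5.33 and 4.81 in WT (-1.20 ± 0.17, adjusted p = 0.00686). Its WT arrays were 0.52 apart, and without KO replicate 1 or KO replicate 2 its adjusted p was 0.0549 and 0.0562. Pola2, the accessory subunit, differed by -0.66 ± 0.10, and its adjusted p of 0.00757 became 0.0556 without KO replicate 2.

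Of the enzymes that extend the strands, Pole, the catalytic subunit of the leading strand polymerase epsilon, had the largest difference of any member. It read 3.49 and 2.74 in KO against 5.06 and 4.94 in WT (-1.88 ± 0.24, adjusted p = 0.0039), and the KO mean of 3.12 lay at the array median, where arrays tend to understate a difference. Pole2, the next subunit of that polymerase, read 4.81 and 4.32 in KO against 5.34 and 5.08 in WT (-0.65 ± 0.18). It did not pass the test (adjusted p = 0.0718), though it did without KO replicate 1 (-0.89, adjusted p = 0.044). Pold1, the catalytic subunit of the lagging strand polymerase delta, read 4.58 and 4.24 in KO against 5.15 and 5.06 in WT (-0.69 ± 0.14, adjusted p = 0.0221). The Pold1 call was lost without KO replicate 2 (adjusted p = 0.0898) and without WT replicate 1 (adjusted p = 0.0867).

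The sliding clamp and its loader held 0 called genes of 5. Pcna, the ring that tethers polymerases and also serves DNA repair, read 9.67 and 9.58 in KO against 10.1 and 9.92 in WT. The groups did not overlap, but the difference of -0.39 ± 0.11 was not past the test (adjusted p = 0.069). Rfc1, the large subunit of the loader, differed by -0.15 ± 0.10, Rfc2 by 0.14 ± 0.11 and Rfc5 by -0.19 ± 0.14. Their 95% intervals reached down to -0.40, -0.12 and -0.54, so a fall as large as that of Mcm5 lies outside all 3. Rfc3 read 4.91 and 4.55 in KO against 5.64 and 4.99 in WT. Its WT arrays were 0.65 apart, and the difference of -0.58 ± 0.23 (adjusted p = 0.175) passed without WT replicate 2 alone among the arrays left out (-0.91, adjusted p = 0.0252).

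Replication protein A coats unwound single strands. Rpa1, its large subunit, read 5.52 and 5.69 in KO against 6.48 and 6.44 in WT (-0.86 ± 0.11, adjusted p = 0.00383). Rpa2 differed by -0.46 ± 0.11 (adjusted p = 0.0438), and its call was lost whichever array was left out, with adjusted p from 0.0505 to 0.197. Lig1, the ligase that seals Okazaki fragments, was among the clearest differences, with 4.27 and 4.13 in KO against 5.79 and 5.71 in WT (-1.55 ± 0.10, adjusted p = 0.000393). Fen1, the nuclease that trims the flaps before ligation, read 4.79 and 4.58 in KO against 5.00 and 5.13 in WT (-0.38 ± 0.12, adjusted p = 0.0865). A second probe set for Fen1 gave -0.39 ± 0.13.

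The 3 measured genes of deoxynucleotide supply were all lower, in each fit that left out 1 array as well. Rrm2, the small subunit of ribonucleotide reductase that is made in S phase, read 5.48 and 5.08 in KO against 7.05 and 6.93 in WT. The difference was -1.71 ± 0.15 (adjusted p = 0.0011), which left 0.305 of the WT signal. Rrm1, the large subunit, read 6.67 and 6.29 in KO against 7.59 and 7.52 in WT (-1.07 ± 0.15, adjusted p = 0.00519). Tk1, the cytosolic thymidine kinase of the salvage pathway, read 4.77 and 4.28 in KO against 6.23 and 5.85 in WT (-1.51 ± 0.20, adjusted p = 0.00464). A second probe set for Tk1 gave -1.67 ± 0.16. The remaining listed gene, Tyms, shared its probe sets with its pseudogene Tyms-ps. Their mean differences were 0.324 and 0.031, so neither was lower in KO, and they were not tested.

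**Figure D3:**
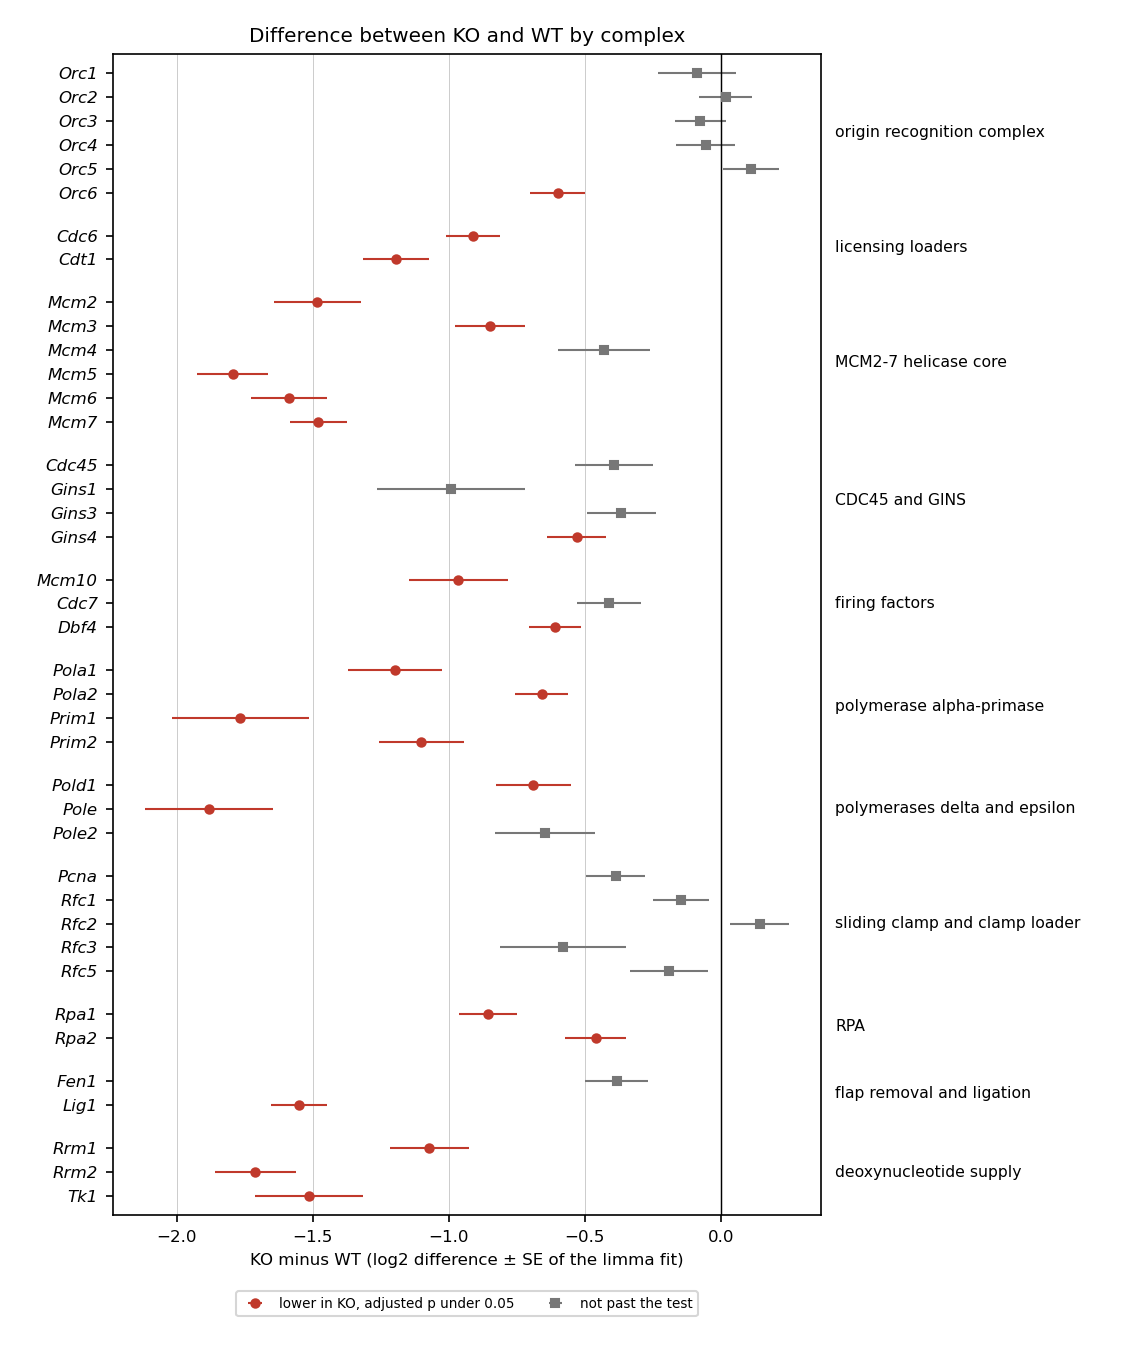
Difference of KO minus WT on the log2 scale (horizontal axis) for each measured gene, with bars of 1 standard error from the limma fit on 2 KO and 2 WT arrays. Red circles passed the test and grey squares did not. The 5 origin recognition genes Orc1 to Orc5 and Rfc1, Rfc2 and Rfc5 of the clamp loader lie nearest to 0, while Pole, Mcm5, Prim1 and Rrm2 lie beyond -1.7.

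The members also differed between pools of 1 genotype. KO replicate 1 was above KO replicate 2 for 35 of the 40 genes, or 87.5%, against 49.4% of all genes, with a median gap of 0.21. The widest gaps were 0.82 for Gins1, 0.82 for Prim1 and 0.75 for Pole, and Rfc5 was the furthest the other way (-0.38). WT replicate 1 was above WT replicate 2 for 30 of the 40, or 75.0%, against 50.2% of all genes, with a median gap of 0.093. Over the members the gap between the KO pools was thus smaller than the median difference between genotypes of -0.65, and larger than the differences of single genes such as Orc1 and Orc4.

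**Figure D4:**
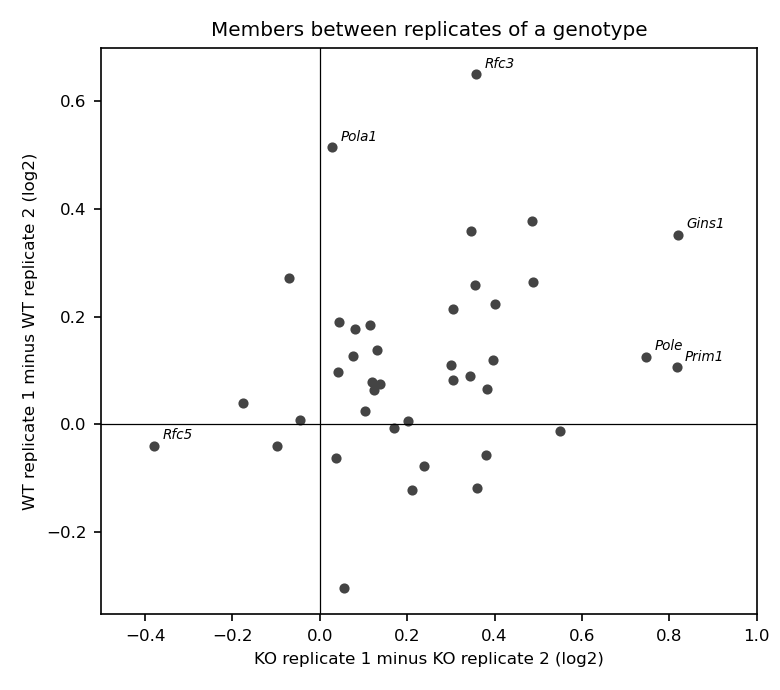
Replicate 1 minus replicate 2 on the log2 scale for each measured member, between the KO arrays on the horizontal axis and between the WT arrays on the vertical axis. Of 40 points, 35 lie right of 0 and 30 lie above 0. The names mark the widest gaps, such as Gins1 and Prim1 between the KO arrays and Rfc3 between the WT arrays.

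Further genes of the pathway were counted from 3 lists written from general knowledge, with earlier results of these data known. Of 36 measured replication factors outside the members, 17 were lower in KO and 0 higher, and 19 did not pass, with a median of -0.47. The lower genes are 47.2% of this list, against 6.86% of all genes. The count was 10 without KO replicate 2 and 10 without WT replicate 1. Those with the smallest p were the nuclease and helicase gene Dna2 (-1.56 ± 0.11), Chaf1a, of the factor that sets histones on new DNA (-1.20 ± 0.11), Uhrf1, which guides maintenance methylation (-1.55 ± 0.16), the topoisomerase gene Top2a (-1.75 ± 0.20) and the fork checkpoint mediator Clspn (-0.98 ± 0.11). Dna2 read 5.71 and 5.90 in KO against 7.40 and 7.32 in WT, with no overlap. The dimmest probe set of Top2a gave -0.15 (adjusted p = 0.451).

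Of 36 measured enzymes of nucleotide metabolism outside the members, 5 were lower in KO and 1 higher, and 30 did not pass, with a median of 0.013. The lower genes are 13.9% of this list, against 6.86% of all genes lower and 7.41% higher. The lower genes were Shmt1 (-0.93 ± 0.11), which makes the one-carbon units for thymidylate, the thymidylate kinase gene Dtymk (-0.77 ± 0.11), the purine salvage gene Hprt (-0.77 ± 0.14), the dUTPase gene Dut (-0.59 ± 0.10) and Samhd1 (-0.52 ± 0.10), whose protein breaks down deoxynucleotides. The higher gene was the CTP synthase gene Ctps2 (0.41 ± 0.10, adjusted p = 0.0486), which no fit that left out 1 array called (adjusted p from 0.0696 to 0.202). Fits that left out 1 array called 1 lower gene without KO replicate 1, which was Shmt1, then 2 without KO replicate 2 and 3 without WT replicate 1. Shmt1 read 4.22 and 4.01 in KO against 5.04 and 5.05 in WT.

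Of 13 genes of the E2F and Rb families, which set the timing of S phase transcription, 6 were lower in KO and 0 higher, and 7 did not pass, with a median of -0.23. The lower share was 46.2%, against 6.86% over all genes. The repressor E2f8 read 3.09 and 2.87 in KO against 4.16 and 4.25 in WT (-1.22 ± 0.12, adjusted p = 0.00138). The pocket protein gene Rbl1 (-0.98 ± 0.13), the repressor E2f7 (-1.01 ± 0.17) and the activators E2f1 (-0.59 ± 0.11) and E2f2 (-0.58 ± 0.11) were also lower. A second probe set of Rbl1 gave -0.079 (adjusted p = 0.818). The calls of E2f1 and E2f2 each failed without 3 of the 4 arrays, with adjusted p from 0.0501 to 0.0953, and the count of the list was 3 without KO replicate 1 and 3 without WT replicate 1.

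**Figure D5:**
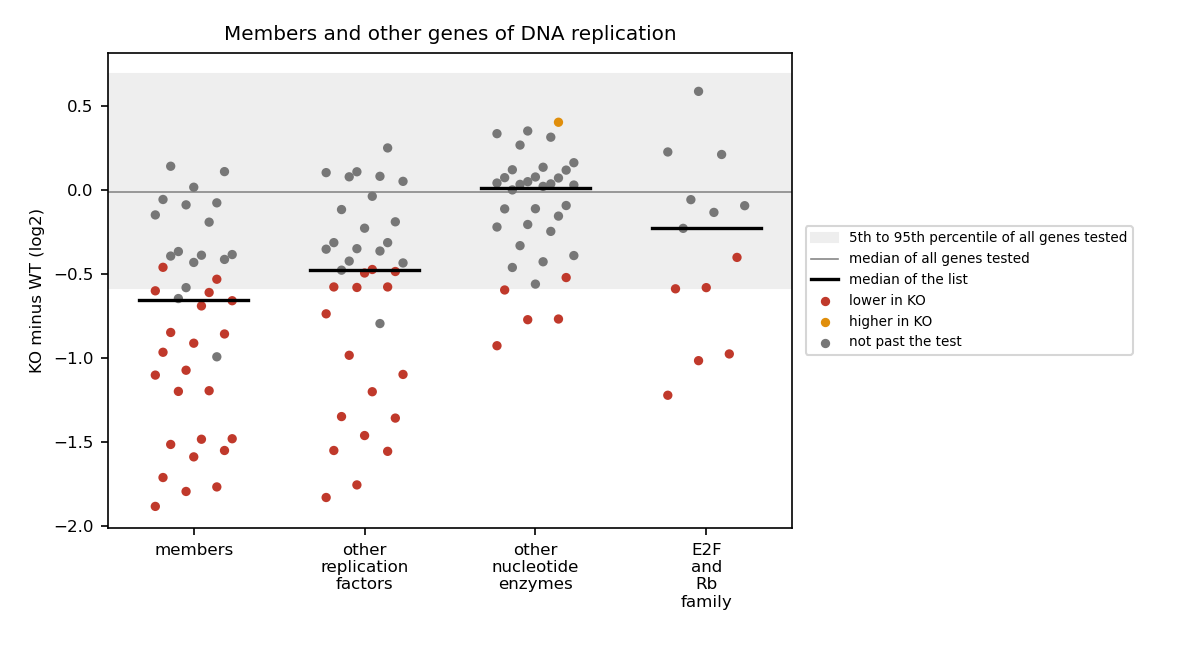
Difference of KO minus WT on the log2 scale (vertical axis) for the 40 measured members and for the genes of the 3 further lists, each point 1 gene, red where lower in KO, orange where higher and grey where not past the test. Black bars are list medians, and the grey band runs between the 5th and 95th percentile of all genes tested. The members and the other replication factors reach below -1.5, while the other nucleotide enzymes centre on 0.013.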

How the data were processed

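RNA of 4 sorted cell pools was hybridised to 1 array each. The deposited values, 1 per probe set, are log2 expression; per the submitters' processing notes the authors used RMA and R 2.15.2. How RMA was set, and on which build probes were annotated, is not given in these notes. Of 28371 probe sets, 21158 named 1 gene in the platform annotation, 1881 several and 5332 none. The Entrez identifiers of 21128 were found in the reference gene table. Probe sets that named 1 gene were kept, 1 for each of 18782 genes, with no filter on level. limma 3.58.1 in R 4.3.3 fitted the genotype alone, with empirical Bayes moderation (2 residual and 4.16 prior degrees of freedom), two-sided, adjusted over all genes. The number of arrays limits the precision, and the p-values measure the spread between pools of mice. The procedure was tested on data simulated from the model of the fit, with independent errors. Such data cannot show whether the model suits these arrays. Promoters of 36 members were matched by symbol in RefSeq's table.

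The members and lists were chosen with earlier results of these data known, and counts of lists are descriptions. Named genes are the members, the targeted and gate genes, the cell type markers, and from each further list the 5 with the smallest p and any direction with 5 or fewer genes. Alternatives were repeated quantile normalization, centring of arrays, an intensity trend, other probe set rules, a level filter, a test against 0.5, a replicate block and leaving out each array. Left out of the fits were probe sets with several genes.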

Additional observations from a re-analysis of the deposited data

How the results depend on the processing

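The counts of members lower (23) and higher (0) were the same under repeated quantile normalization, centring of the arrays and both other probe set rules. These settings could change little. The sorted values of the arrays were already within 0.012 of each other, and of the members only Fen1, Pcna and Tk1 had several probe sets. The count lower was 24 with an intensity trend, 24 among genes above the median level and 10 when tested against 0.5, a stricter question by construction. With 1 array left out it ran from 16 to 23, and the median difference from -0.76 to -0.56. These fits hold a single array of 1 genotype, which is assumed to vary like the others. By complex, leaving out 1 array gave 0 to 1 for the origin recognition complex, 2 to 2 for the loaders, 5 to 5 for the helicase ring, 0 to 1 for Cdc45 and GINS, 1 to 2 for firing factors, 2 to 4 for polymerase alpha and primase, 1 to 3 for polymerases delta and epsilon, 0 to 1 for clamp and loader, 1 to 1 for RPA, 1 to 1 for Fen1 and Lig1 and 3 to 3 for nucleotide supply. Against 0.5 the counts were 0 for the origin recognition complex, Cdc45 and GINS, firing factors and RPA, 1 for the loaders, 1 for polymerase alpha and primase and 1 for polymerases delta and epsilon. The intensity trend gave 2 for Cdc45 and GINS, 1 for clamp and loader and 1 for RPA, and the level filter 1 for clamp and loader; the clamp gene called under these 2 settings was Pcna. Of the further lists, 10 to 12 replication factors were lower with 1 array left out and 7 against 0.5. Of nucleotide enzymes 1 to 6 were lower with 1 array left out, 8 with the trend and 0 against 0.5, and 0 were higher with any array left out, against 0.5, with the block or when a gene was read at its lowest probe set. Of the E2F and Rb families 3 to 4 were lower with 1 array left out and 1 against 0.5. Over all genes, 647 to 1057 were lower and 726 to 1227 higher with 1 array left out, and 336 and 498 against 0.5. The sign of an uncalled difference turned for Orc1 (-0.266 to 0.093), Orc2 (-0.033 to 0.070), Orc4 (-0.156 to 0.046) and Pparg (-0.124 to 0.010) over the fits without 1 array: Orc1 and Orc4 were above 0 without KO replicate 2, and Orc2 below 0 and Pparg above 0 without KO replicate 1. The labels give replicates 1 and 2 in both genotypes but no shared litter or day, and the gaps between replicates of KO and of WT correlated over genes with r = -0.017. With the replicate number as a block, 26 members were lower, among them all 23 and also Gins1, Pole2 and Rfc3, with 2 for Cdc45 and GINS, 1 for clamp and loader and 1 higher gene of the E2F and Rb families. The cause of these changes was not tested.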

Other observations

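The 3 listed genes without a probe set of their own were on probe sets that name a second gene, so their values belong to neither gene alone. The probe set for Gse1 and Gins2 read 4.50 and 4.21 in KO against 5.25 and 5.32 in WT. The probe set for Rfc4 and Eif4a2 read 4.97 and 4.85 in KO against 5.62 and 5.22 in WT. The 2 probe sets for Tyms and its pseudogene Tyms-ps differed from each other, with 5.25 and 5.21 in KO against 4.84 and 5.56 in WT on the brighter and 2.92 and 2.73 in KO against 2.53 and 2.46 in WT on the dimmer. Pcna was also read by 2 probe sets, and their values were within 0.01 of each other on every array.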
